A study of Mus musculus with 3 samples.

Results

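The endothelial surface lectins Cd93 and Clec14a, the related lectin Cd248, the lectin-like receptor Clec1a, the matrix protein gene Mmrn2 and the scavenger receptors Stab1 and Stab2 were examined in RNA bound to endothelial ribosomes of the mouse heart. These 7 genes were chosen by symbol and were all listed in the deposited table of 17583 genes. CD93, CLEC14A, CD248 and thrombomodulin form group 14 of the C-type lectin domain proteins. They span the membrane once and carry a lectin-like domain with EGF-like repeats on the outside. CD93 and CLEC14A are known from endothelial cells, CD248 from pericytes and fibroblasts, and CD93, CLEC14A and CD248 bind multimerin-2, a glycoprotein that endothelial cells lay down in their matrix. The stabilins are large endocytic receptors, of which stabilin-1 is known from macrophages and from sinusoidal and lymphatic endothelium, and stabilin-2 from the sinusoids of liver and spleen, where it clears hyaluronan. CLEC1A belongs to another lectin group and faces outward with its C-terminal end.

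The samples were 3 mouse hearts, all of a single condition. The animals, named EC-RiboTag, carried the genotype Cdh5-CreERT2;Rpl22tm1.1Psam. In these animals tamoxifen-induced Cre, driven by the promoter of VE-cadherin, switches Rpl22 to a version with a hemagglutinin tag, so that ribosomes of recombined endothelial cells can be immunoprecipitated and their RNA sequenced. VE-cadherin is made by endothelial cells of blood vessels, lymphatic vessels and endocardium, so the pulled-down RNA can come from several endothelial types. The labels place collection at day 7 after ligation of a coronary artery, while the study's methods for these libraries do not mention an infarct. The sample titles begin with hrtRz, and the study abbreviates the remote zone of infarcted hearts as RZ. For PCR it purified endothelial ribosome-bound RNA from that zone of EC-RiboTag hearts 7 days after infarction, and from border and infarct zones. The titles are not spelled out, and the sequenced libraries are described without a zone. Whether remote tissue or whole hearts were used is therefore not settled. The study used adult mice of both sexes, without tying an age or a sex to these 3. The labels call the libraries biological replicates. No input library and no control group were analysed here, so all values are levels within the pull-down and no change between conditions was tested.

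The deposited values are read counts divided by a size factor for each library and rounded to whole numbers, called normalized counts here. From the whole numbers that rounding skips or doubles, 1 read was worth about 0.977, 1.06 and 0.961 normalized counts in mice 1, 2 and 3, which implies about 7321000, 6753000 and 7564000 reads on the listed genes. The pull-down carried endothelial RNA: all 12 endothelial markers were listed, with a median of 690.1 ± 13.4 normalized counts per 1000 bases of canonical transcript (SD, n = 3 mice), against 28.6 ± 8.60 for 12 leukocyte markers. The log2 ratio of these medians was 4.64 ± 0.49 (SD, n = 3), or 25-fold (exact sign-flip permutation test within mice, two-sided p = 0.25, the smallest that 3 mice allow). RNA of other cells was present too, since 7 cardiomyocyte markers had a median of 575.1 ± 23.0 per 1000 bases and none of them was at 0. The authors removed duplicate reads, which can compress high levels such as the endothelial and cardiomyocyte medians more than low ones. Its part in these medians and their ratio was not tested. In bulk RNA, fewer cells of a type and less RNA per cell cannot be told apart.

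Upstream sequence was available for 3 of the 7 genes in the RefSeq table of promoters (build GRCm38.p6), namely Clec14a, Stab1 and Stab2. Cd93, Cd248, Clec1a and Mmrn2 had no entry. The 250 bases before the start of transcription are shown for the 3 genes with an entry, 5′ to 3′ on the strand of the gene. These genes lie at a high, a middle and the lowest level of the group. Capitals mark GGAA and its reverse complement TTCC, the core that ETS transcription factors bind. ETS factors are known regulators of endothelial genes. In that build the Clec14a window lies at chr12:58269259-58269508, Stab1 at chr14:31168642-31168891 and Stab2 at chr10:87007943-87008192, all on the minus strand.
Clec14a: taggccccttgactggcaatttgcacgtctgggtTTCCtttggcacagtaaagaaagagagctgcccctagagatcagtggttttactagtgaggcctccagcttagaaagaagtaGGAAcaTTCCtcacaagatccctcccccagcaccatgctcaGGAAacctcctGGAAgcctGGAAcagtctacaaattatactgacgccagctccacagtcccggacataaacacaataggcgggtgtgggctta
Stab1: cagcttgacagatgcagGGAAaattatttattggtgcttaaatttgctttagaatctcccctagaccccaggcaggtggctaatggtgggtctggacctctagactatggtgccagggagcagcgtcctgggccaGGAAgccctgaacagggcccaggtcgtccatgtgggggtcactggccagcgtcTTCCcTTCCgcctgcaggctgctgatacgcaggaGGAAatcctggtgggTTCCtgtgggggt
Stab2: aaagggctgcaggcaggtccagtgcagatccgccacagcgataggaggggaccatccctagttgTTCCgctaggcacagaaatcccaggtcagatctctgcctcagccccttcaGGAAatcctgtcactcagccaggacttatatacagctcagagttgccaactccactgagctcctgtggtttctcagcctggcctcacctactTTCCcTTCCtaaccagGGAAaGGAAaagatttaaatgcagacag
Each of the 3 windows held 6 such cores, counting both strands. Of all 32851 windows of this length in the table, 93.4% held at least 1 core, the median was 3, and 8.69% held 6 or more. Stab2, the lowest gene of the group, thus had as many cores as Clec14a, one of its highest. The CG dinucleotide occurred 4 times before Clec14a, 5 times before Stab1 and 3 times before Stab2, against a median of 6 over all windows.

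Cd93 was the most abundant of the 7 genes. It encodes a receptor first described as a C1q receptor that is known to promote endothelial adhesion and vessel sprouting. Its normalized counts were 3207, 3471 and 3618 in mice 1, 2 and 3, a mean of 3432 ± 208 (SD, n = 3). The mice differed little, with a highest value 1.13 times the lowest. By normalized count Cd93 ranked 26 of all 17583 genes, but this count favours long transcripts. The canonical transcript of Cd93 has 2 exons and 6740 bases, of which 1932 are coding. Per 1000 bases it had 509.2 ± 30.9 normalized counts, a level above that of 97.1% of the 17475 genes with a known length.

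Clec14a, which encodes an endothelial lectin linked to sprouting and vessel alignment, followed Cd93. Its normalized counts were 2146, 2052 and 1913, with a mean of 2037 ± 117 (SD, n = 3). Mouse 1 was the highest for Clec14a and the lowest for Cd93, and mouse 3 the reverse. The gene consists of 1 exon of 4571 bases. Per 1000 bases its level was 445.6 ± 25.6, above 95.3% of genes. The log2 ratio of Cd93 to Clec14a per base was 0.02, 0.20 and 0.36 in the 3 mice, with a mean of 0.19 ± 0.17 (SD, n = 3; exact sign-flip permutation test, two-sided p = 0.25, 0.33 after Benjamini-Hochberg adjustment over 8 gene pairs). In mouse 1 the levels per base of these lectins were almost equal. The order depended on the length used, as the ratio was -0.67 per base of all annotated exons, where an alternative Cd93 transcript that runs past the deposited gene bounds raises the exonic length to 12224 bases.

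Mmrn2 encodes multimerin-2, the matrix ligand of these lectins, which also binds VEGF-A. It had the smallest spread of the group, with normalized counts of 1774, 1726 and 1796 and a mean of 1765 ± 35.8 (SD, n = 3). Its coefficient of variation of 2.03% was below the 2.38% that counting alone would give. Removal of duplicates leaves about 1 read per start position and can narrow the spread of genes at such levels, and its part here was not tested. Among 9358 genes averaging 200 normalized counts or more, 94.8% varied more between mice. Per 1000 bases of its canonical transcript of 4257 bases and 7 exons, the level was 414.7 ± 8.41. On this scale Mmrn2 lay just below both lectins. Its log2 ratio to Clec14a was -0.10 ± 0.10 (SD, n = 3; exact sign-flip permutation test, two-sided p = 0.50, adjusted p = 0.50), with Mmrn2 lower in 2 of 3 mice. Its log2 ratio to Cd93 was -0.29 ± 0.09 (SD, n = 3; exact sign-flip permutation test, two-sided p = 0.25, adjusted p = 0.33), with Mmrn2 lower in 3 of 3 mice. Without division by length the ratio to Cd93 was -0.96. Per base of all annotated exons, Clec14a exceeded Mmrn2 by 0.97 on the log2 scale.

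**Figure D1:**
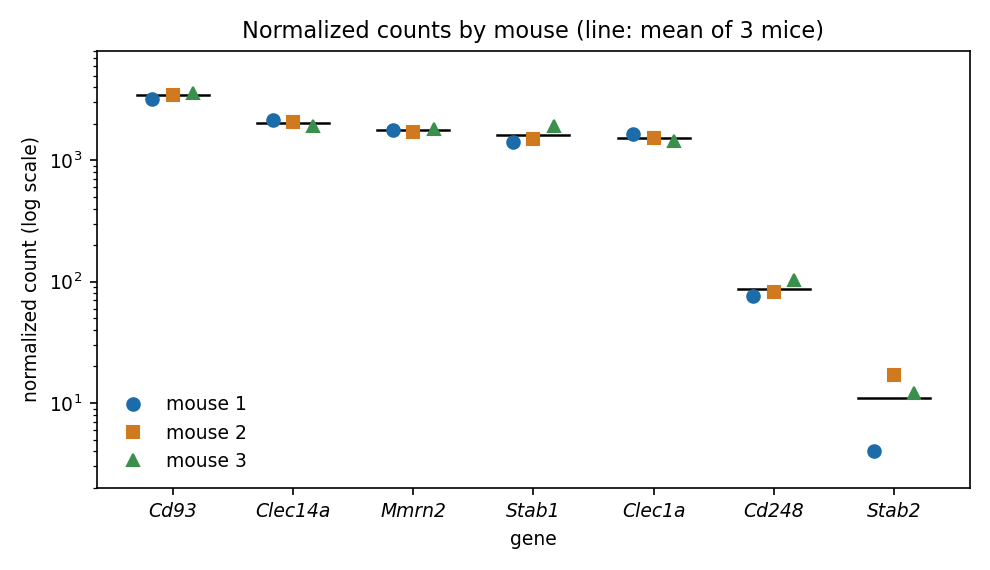
Normalized counts of the 7 genes on a log axis, with 1 point for each of the 3 mice and a line at the mean. Cd93 lies highest at a mean of 3432, Clec14a, Mmrn2, Stab1 and Clec1a lie between 1542 and 2037, Cd248 lies at 87.0 and Stab2 at 11.

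Cd248 encodes endosialin, the group 14 lectin of pericytes and fibroblasts. It was low, with normalized counts of 76, 82 and 103 and a mean of 87.0 ± 14.2 (SD, n = 3), which rest on about 78, 77 and 107 reads. Counting alone gives a coefficient of variation of 10.7% at this level, and the observed one was 16.3%. Without mouse 3 the coefficient was 5.37%. Cd248 has 1 exon of 2605 bases, most of it coding. Per 1000 bases it had 33.4 ± 5.44, above 37.2% of genes. Cd93 exceeded Cd248 per base by a log2 ratio of 3.94 ± 0.15, or 15.4-fold (SD, n = 3; exact sign-flip permutation test, two-sided p = 0.25, adjusted p = 0.33), with Cd93 higher in 3 of 3 mice. The ratio was 3.08 per base of all annotated exons and 5.31 without division by length.

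Markers of the cells that Cd248 is known from were present. Of 9 mural markers, all were listed, with summed normalized counts of 1755, 2218 and 2500 in mice 1, 2 and 3 and a median of 43.8 ± 6.96 per 1000 bases. Pdgfrb, the platelet-derived growth factor receptor of pericytes, had 212, 254 and 280 normalized counts. Of 7 fibroblast markers, all were listed, with sums of 2659, 3172 and 3531 and a median of 97.4 ± 11.9 per 1000 bases. No marker of either list was at 0, and 3 of the mural and 2 of the fibroblast markers lay below Cd248 per base. Cd248 and the sums of these lists were lowest in mouse 1 and highest in mouse 3. The single markers were mixed, with 6 of 9 mural and 5 of 7 fibroblast markers lowest in mouse 1. Of all listed genes with a single lowest mouse, 34.8% were lowest there. The mural markers Rgs5 (542, 615 and 505), Kcnj8 (138, 85 and 119) and Abcc9 (383, 301 and 396) were not. The part of mural and fibroblast RNA in the Cd248 count was not tested.

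The remaining group 14 lectin gene, Thbd, encodes the anticoagulant receptor thrombomodulin and lies on chromosome 2 beside Cd93. In GRCm39 Cd93 spans chr2:148278560-148285483 and Thbd is the nearest listed gene on its lower side, 28452 bases away on the same strand. Thbd had normalized counts of 2209, 2084 and 1938, a mean of 2077 ± 136 (SD, n = 3). Like Clec14a, it was highest in mouse 1 and lowest in mouse 3. Per 1000 bases its level of 557.9 ± 36.4 was near that of Cd93, and the log2 ratio of Cd93 to Thbd was -0.13 ± 0.18 (SD, n = 3; exact sign-flip permutation test, two-sided p = 0.50, adjusted p = 0.50), with Cd93 lower in 2 of 3 mice. Without division by length the ratio was 0.72. The next listed gene on the other side of Cd93, Gm14120, had a mean of 23.3 ± 9.71 normalized counts.

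Clec1a encodes a receptor of endothelial and myeloid cells that is known to recognise fungal melanin. Its normalized counts were 1644, 1532 and 1449, with a mean of 1542 ± 97.9 (SD, n = 3). As for Clec14a, mouse 1 was the highest and mouse 3 the lowest. Per base, the log2 ratio of Clec14a to Clec1a was nearly the same in each mouse, at 1.29, 1.33 and 1.31, with a mean of 1.31 ± 0.02, or 2.48-fold (SD, n = 3; exact sign-flip permutation test, two-sided p = 0.25, adjusted p = 0.33). Per 1000 bases of its canonical transcript of 8567 bases, Clec1a had 180.0 ± 11.4 normalized counts, above 73.2% of genes. This length is uncertain. In the annotation used for lengths, the transcript runs 3387 bases further than the gene bounds of the deposited table (chr6:129401735-129428963), into bases the authors may not have counted. Within the deposited bounds, an alternative added once the data had been seen, the transcript has 5180 bases and the level was 297.6 ± 18.9 per 1000 bases. The log2 ratio of Clec14a to Clec1a was then 0.58, and 0.40 without division by length.

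Clec1a stood out from the lectin receptor genes around it on chromosome 6. The nearest listed genes were Clec9a and Clec7a, receptors of dendritic and myeloid cells, with means of 6.67 ± 3.06 and 13.0 ± 5.20 normalized counts. Of 8 lectin genes fixed for this cluster, 7 were listed and Clec2g was not. Of the 7, 6 had a lower level per base than Clec1a, between 2.07 for Clec9a and 18.4 for Clec7a per 1000 bases. Clec2d, which encodes a ligand of natural killer cell receptors, was higher, with 436, 366 and 361 normalized counts and 319.3 ± 34.5 per 1000 bases. It also lay above Clec1a measured within the deposited bounds, by less than its SD.

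Stab1 was the member with high counts that varied most. Its normalized counts were 1411, 1513 and 1924, a mean of 1616 ± 272 (SD, n = 3). Mouse 3 stood above the other 2 mice, which lay close together. The coefficient of variation was 16.8%, or 4.93% without mouse 3 and 21.8% without mouse 2, and counting alone would give 2.49%. A coefficient over 20% was found in 8% of the 9358 genes averaging 200 or more, and in 0 of the 5 members at such levels, whose coefficients ran from 2.03% to 16.8%. Stab1 has 69 exons and a canonical transcript of 7999 bases, 7713 of them coding. Per 1000 bases its level was 202.0 ± 34.0, above 76.6% of genes. The gene Nt5dc2 overlaps its span on the opposite strand, and the authors counted reads by strand and left out those that overlap several genes.

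Stab1 is also a macrophage gene, so markers of other cells are given beside it. All 12 leukocyte markers were listed and none was at 0, with sums of 900, 1329 and 1289 normalized counts in mice 1, 2 and 3, and 11 of the 12 were lowest in mouse 1, while C1qa tied between mice 1 and 3. The highest of them per base, the complement gene C1qa, had 137.7 ± 12.2 per 1000 bases, and all 12 lay below Stab1. Stab1 was 7.44 ± 2.01 times the leukocyte median per base (SD, n = 3). All 7 lymphatic endothelial markers were listed with sums of 3739, 4662 and 5421, and each of the 7 was lowest in mouse 1, as Stab1 was. Of all listed genes with a single lowest mouse, 34.8% were lowest in mouse 1, and of those averaging 200 or more, 32.0%. Among them, Lyve1, the hyaluronan receptor of lymphatic vessels, had 645, 758 and 1023 normalized counts. The 4 endocardial markers summed to 2947, 2212 and 3835, and all 4 were highest in mouse 3. Of 9280 well-measured genes with a single highest mouse, 29.9% were highest in mouse 3. The 12 general endothelial markers summed to 28759, 27701 and 27593, at levels per base where duplicate removal can narrow differences most. What part these cell types had in the level or the spread of Stab1 was not tested.

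**Figure D2:**
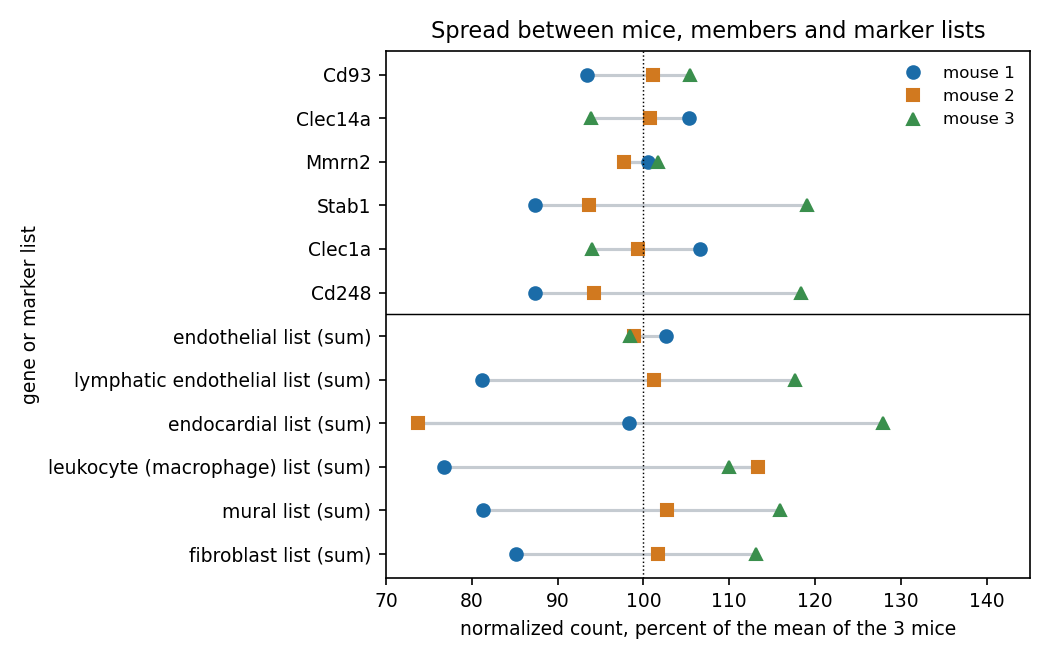
Each mouse's normalized count as a percent of the mean of the 3 mice, for 6 of the genes (upper rows) and for the summed counts of 6 marker lists (lower rows). Stab1 and Cd248 reached 119% and 118% of their means in mouse 3, whereas Clec14a and Clec1a were lowest there at 93.9% and 94.0%.

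Stab2 was close to the floor of the table, which lists no gene whose highest value is below 4. Its normalized counts were 4, 17 and 12, a mean of 11 ± 6.56 (SD, n = 3), from about 4, 16 and 12 reads. At so few reads counting error alone gives a coefficient of variation of 30.2%, against 59.6% observed, and mouse 1 set most of the spread, since the coefficient was 24.4% without it. Stab2 has 69 exons like Stab1 and a canonical transcript of 10236 bases. Of these, 2008 lie outside the deposited gene bounds, and the 8228 within them compare with 7999 for Stab1. Per 1000 bases it had 1.07 ± 0.64, and 3.06% of genes were lower. Stab1 and Stab2 differed by a log2 ratio per base of 8.82, 6.83 and 7.68 in the 3 mice, with a mean of 7.78 ± 1.00, or 219.3-fold (SD, n = 3; exact sign-flip permutation test, two-sided p = 0.25, adjusted p = 0.33). The fold was 152.9 without mouse 1, 304.3 without mouse 2 and 226.7 without mouse 3, and rests on the few Stab2 reads. The log2 ratio was 7.46 within the deposited bounds, 7.49 per base of all annotated exons and 7.42 without division by length.

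Other genes of sinusoidal endothelium did not share 1 level. Gpr182, a receptor of sinusoidal and lymphatic endothelium, had 736, 588 and 889 normalized counts and 185.0 ± 37.7 per 1000 bases. Clec4g, Fcgr2b and Oit3 had means of 45.7 ± 33.1, 85.7 ± 39.7 and 10.3 ± 1.53 normalized counts. All 4 markers of this list were highest in mouse 3. Of 9280 well-measured genes with a single highest mouse, 29.9% were highest there. Only Gpr182 of the 4 is well measured, so that share is no direct background for the others. Oit3 had 9, 10 and 12 normalized counts, so its order rests on few reads. All 4 lay above Stab2 per base, as most genes did, since only 3.06% were lower than Stab2.

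Ordered by normalized count per base of canonical transcript, the genes ran from Cd93 through Clec14a, Mmrn2, Stab1, Clec1a and Cd248 to Stab2. Of the 6 neighbouring pairs, all but Stab1 and Clec1a differed by more than the larger SD. That pair changed order in mouse 1, and its log2 ratio was 0.16 ± 0.32 (SD, n = 3). Clec14a and Mmrn2 changed order in mouse 3. With transcripts held to the deposited bounds, the log2 ratio of Stab1 to Clec1a was -0.57 and that of Clec14a to Mmrn2 was 0.0032. Against the endothelial marker median in the same mouse, Cd93 reached 73.9% ± 5.84, Clec14a 64.5% ± 2.48 and Mmrn2 60.1% ± 2.09 (SD, n = 3), while Stab1 and Clec1a reached 29.3% ± 5.53 and 26.1% ± 1.18. Cd248 and Stab2 lay at 4.85% ± 0.89 and 0.16% ± 0.093. Duplicate removal can compress the higher marker median more than the members, so these percentages may be too high. Its part was not tested. The median over all listed genes was 73.0 per 1000 bases, which 5 of the 7 members exceeded.

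**Figure D3:**
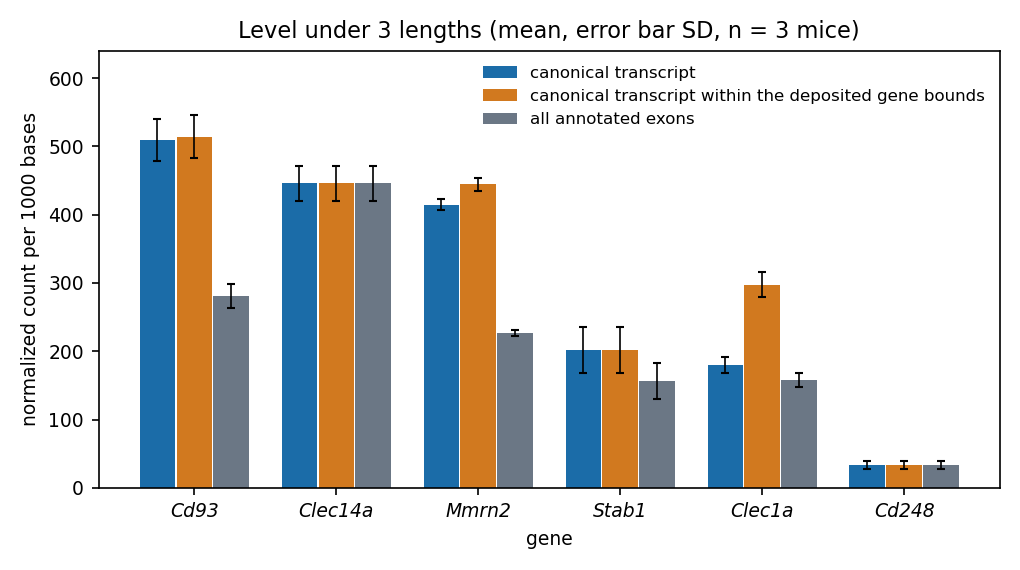
Mean normalized count per 1000 bases for 6 of the genes under 3 definitions of transcript length, with bars from 0 and error bars of 1 SD over 3 mice. Clec14a at 445.6 and Cd248 at 33.4 do not depend on the definition, Cd93 falls to 280.8 and Mmrn2 to 226.7 per 1000 bases of all annotated exons, and Clec1a rises to 297.6 within the deposited gene bounds.

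**Figure D4:**
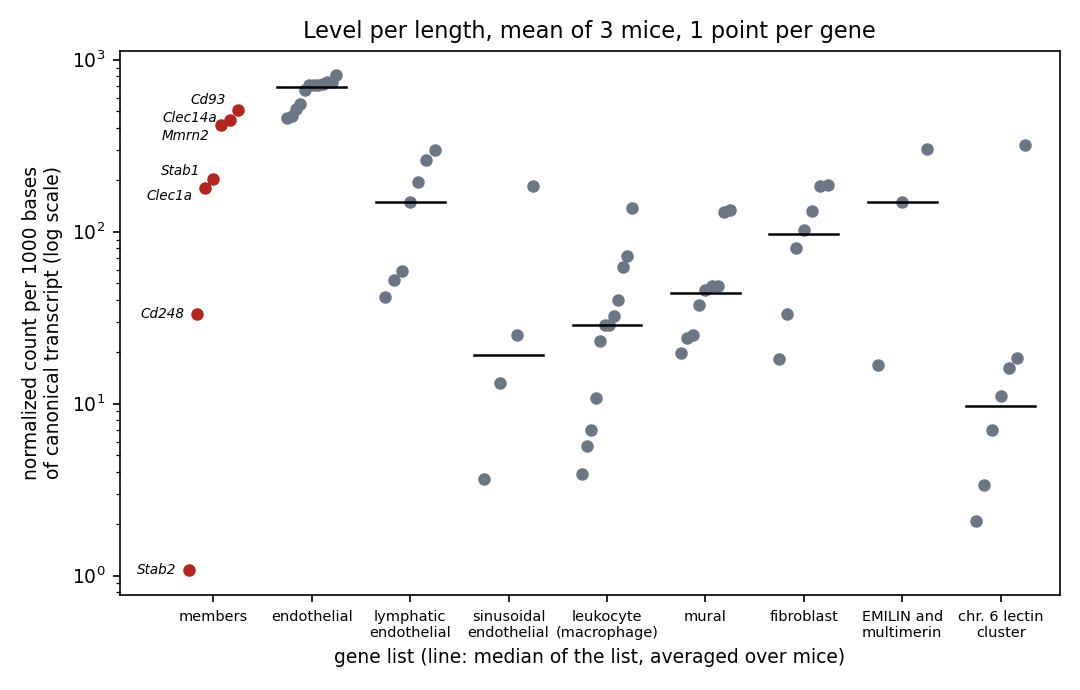
Level per 1000 bases of canonical transcript on a log axis, 1 point per gene as the mean of 3 mice, for the 7 genes and for 8 lists of other genes, with a line at each list's median. Cd93 at 509.2 lies above 2 of the 12 endothelial markers (460.8 to 809.4), and Clec14a and Mmrn2 at 445.6 and 414.7 lie below all 12. Stab2 at 1.07 lies below every gene of the lists.

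In the family of Mmrn2, the level differed between members. Mmrn1, multimerin-1 of platelets and of lymphatic endothelium, had 482, 674 and 851 normalized counts, a mean of 669.0 ± 184.6 (SD, n = 3). Per base, Mmrn2 exceeded Mmrn1 by a log2 ratio of 1.95, 1.43 and 1.15 in the 3 mice, with a mean of 1.51 ± 0.41, or 2.85-fold (SD, n = 3; exact sign-flip permutation test, two-sided p = 0.25, adjusted p = 0.33). The platelet markers were low, with sums of 128, 102 and 108 over 5 genes, of which Gp9 was at 0 in mouse 3. Emilin1, an elastic fibre protein, had 302.8 ± 10.5 and Emilin2 16.8 ± 3.13 per 1000 bases. Emilin3 was not listed.

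Genes for other partners of the lectins were listed in full, 14 of 14, with a median of 287.1 ± 35.2 per 1000 bases. Igfbp7, which encodes a secreted ligand of CD93, had 1030, 1083 and 983 normalized counts and 193.3 ± 9.37 per 1000 bases. For these partners no length other than the canonical transcript is given, so their levels per base carry the uncertainty described for Clec1a. Dag1, the gene of dystroglycan, which CD93 binds, had 276.4 ± 13.0 per 1000 bases, and Itgb1, the integrin subunit beta 1, had 485.6 ± 19.5. For the intracellular side of CD93, Msn, which encodes the cytoskeletal linker moesin, had 592.9 ± 24.9 and the adaptor gene Gipc1 had 449.8 ± 5.30 per 1000 bases. The rhomboid protease gene Rhbdl2, whose product sheds CLEC14A, was low at 7, 52 and 31 normalized counts. Fn1, the gene of fibronectin, had 940, 1188 and 1528 normalized counts.

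For the stabilins, all 9 genes of ligands and sorting proteins were listed. Sparc, which encodes a matrix protein taken up by stabilin-1, had the highest level of them with 812.2 ± 46.5 per 1000 bases. Gdf15, the gene of a stress-induced secreted factor bound by stabilins, was the lowest with 52, 137 and 125 normalized counts and 54.6 ± 24.0 per 1000 bases. The hyaluronan receptor genes Lyve1, Cd44 and Hmmr had 195.5 ± 46.9, 109.9 ± 17.5 and 77.1 ± 31.5 per 1000 bases. Each of these 3 was lowest in mouse 1 and highest in mouse 3, and each lay above Stab2. Among genes averaging 200 or more, 32.0% were lowest in mouse 1 and 29.9% highest in mouse 3.

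Other genes of the table came close to each member in all 3 mice. Closeness was measured by the largest of the 3 differences in log2 level per base, with no claim of shared control. Nearest to Cd93 were Ubap2l (0.012) and Nedd4 (0.051), and nearest to Clec14a were Mid1ip1 (0.0093) and Rassf3 (0.012). Mmrn2 was closest to Pxn and Sox13 (0.021 each), Stab1 to Prpf8 (0.042) and Sec31a (0.051), and Clec1a to Gtf2h5 and Unc119 (0.034 each). The gene closest to Cd248 was Pdgfra (0.032), the platelet-derived growth factor receptor of fibroblasts, followed by Uhrf1bp1 (0.046). Stab2 had no gene so close, with Kcna2 (0.46) and Pappa (0.48) the nearest.

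The genomic surroundings differed between the members. Mmrn2 lies at chr14:34097422-34126244 of GRCm39, with Sncg 676 bases before it on the opposite strand at 295.3 ± 41.2 normalized counts and Bmpr1a beyond its end at 325.0 ± 105.1. Clec14a lies at chr12:58311506-58316076. Its nearest listed genes are Sstr1, 50276 bases away at 8.00 ± 3.61 normalized counts, and Sec23a, 689093 bases away at 636.0 ± 21.2. Cd248 lies at chr19:5118106-5120710, with Rin1 at 295.3 ± 65.2 and Tmem151a at 20.3 ± 6.11. Stab1 lies at chr14:30860970-30890598 between Smim4 and Nisch, which had 95.3 ± 10.1 and 1817 ± 141. Stab2 lies at chr10:86677062-86843889, with Nt5dc3 at 439.7 ± 45.5 and Igf1 at 362.3 ± 89.6. No window of 72 bases, the length of a read, in the canonical transcripts of the members had an exact copy elsewhere in the genome, except 2 of 10165 in Stab2.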

How the data were processed

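Ribosome-associated RNA of 3 EC-RiboTag hearts was read from 1 end over 72 bases. According to the study's methods and the submitters' processing notes, the authors trimmed reads with Trimmomatic 0.39, aligned them to mm39 (GRCm39) with STAR 2.7.11a, removed duplicates (Picard 3.1.1) as well as ribosomal, mitochondrial and ambiguously mapped reads, counted exonic reads by strand with featureCounts 2.0.4 and normalized with DESeq2 1.36.0. The deposited values are a score in that the authors divided counts by size factors and rounded them. They are not raw counts, so no count model was fitted. Duplicate removal limits a single-end gene to about 1 read per position and strand, which can compress high levels; the highest member had 509.2 per 1000 bases.

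Levels were divided by the Ensembl canonical transcript in GENCODE annotation of GRCm39, found for 17475 of 17583 genes (99.4%), which is newer than the authors' annotation. Genes were compared within mice by log2 ratios with no pseudocount. The exact sign-flip test was two-sided and cannot go below p = 0.25 with 3 mice or 0.5 with 2. Alternatives were length over all exons, no length, scaling by trimmed means (30% of log ratios and 5% of levels trimmed) or to equal totals, the median over mice, a minimum of 10 in every mouse for ranks, and leaving out each mouse. A transcript held to the deposited gene bounds was added after seeing the data. The worth of 1 read was estimated from whole numbers between 5 and 120. On simulated data over all 17583 genes this recovered 37 of 40 drawn values within 0.002, and the 3 missed, between 1.01 and 1.02, came out between 0.996 and 1.01, where no estimate here lies. BLAST 2.17.0, Python 3.11.15, numpy 2.4.6, pandas 2.3.3 and matplotlib 3.10.9 were used. The genes named are the members, listed partners, family and cluster genes, markers, the nearest gene on each side and the 2 genes closest in level per base (members excluded, mean of at least 200, or at least 0.5 times the member's mean where that is under 200). Members and lists were chosen with earlier results of these data known.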

Additional observations from a re-analysis of the deposited data

How the results depend on the processing

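Of 69 recomputed log2 ratios, 67 kept their direction and their side of 0.05, which none could pass with 3 mice. Exceptions were Cd93 to Clec14a, which reversed to -0.67 per base of all annotated exons, and Cd93 to Thbd, which reversed to 0.72 with no division by length. Rescaling leaves ratios within a mouse as they are, so the ratios recomputed that way could not change. A kept direction does not mean a kept size. The ratio of Mmrn2 to Clec14a went from -0.10 to -0.0032 within the deposited bounds. All 42 recomputed levels moved by less than 1 SD, but this count is no measure of stability. Leaving out a mouse or taking the median cannot move a mean of 3 mice by more than 1 SD. Rescaling used factors between 0.989 and 1.006 only. Of 48 recomputed ranks per base, 13 moved by more than the SD between mice, all under another length. With all annotated exons, Clec14a ranked 119 in place of 829, and Clec1a 2263 in place of 4676. No rank was given for Stab2 with a minimum of 10 in every mouse, which it does not reach. No paired analysis was possible because the 3 libraries form a single group, so there are no samples of another group to pair them with; the ratios compare genes within a library. Stab2 rests on about 4 to 16 reads per mouse and Cd248 on 77 to 107, so their values are the least precise. Over 3 mice both had coefficients of variation above those of counting alone. Without mouse 1 for Stab2 and without mouse 3 for Cd248 they did not. Whether either varied beyond counting was not tested. The alternatives of length change nothing but the divisor.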

Other observations

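Among the endocardial markers, Npr3, the natriuretic peptide clearance receptor, had 1589, 914 and 2228 normalized counts in mice 1, 2 and 3, and Plvap, a protein of fenestral diaphragms, had 785, 852 and 937. Cytl1 had 555, 424 and 614. Hapln1, a link protein of hyaluronan matrix, was low with 18, 22 and 56. Ccl21a, the lymphatic chemokine, was more even than the other lymphatic markers, with 251, 271 and 254. Prox1, the regulator of lymphatic identity, had 349, 554 and 550.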
